A study of Mus musculus with 8 samples.

Results

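The sterol synthesis genes described here are Hmgcs1, Idi1, Fdps, Fdft1, Sqle, Lss and Cyp51, which encode enzymes that build cholesterol, and Insig1, which encodes the brake on their shared regulator. They were chosen by gene symbol, as 8 of the 22274 genes counted. None of the 8 takes up cholesterol itself, so the genes of uptake are described as a separate list. RNA was sequenced from primary murine cardiac fibroblasts, the matrix-producing cells of the heart grown in culture. All 8 libraries came from cells treated with TGF-β, a cytokine that turns fibroblasts into myofibroblasts, given in the study's text as 5 ng/ml for 24 h. The 4 libraries labelled GFP carried the control vector, and the 4 labelled OEIRF7 were transduced to overexpress the transcription factor IRF7. There were no libraries without virus or without TGF-β, and the mice of the study were on a C57BL/6 J background. The sex and age of the mice that gave these cells are not given in the sources used here. The study's text calls its replicates biological, in a smaller number than the libraries, and the labels do not say which libraries were separate cultures, so p-values may measure technical spread in part.

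Cells sense cholesterol in the membrane of the endoplasmic reticulum. When sterols are scarce, the escort protein SCAP carries the membrane-bound factors SREBP to the Golgi, where proteases release the part that enters the nucleus and switches on the enzymes of sterol synthesis, genes of uptake and Insig1 itself. When sterols are plentiful, INSIG proteins hold SCAP back, and oxysterols activate LXR, a nuclear receptor that drives cholesterol export through Abca1 and Abcg1.

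The promoters of the sterol genes are known for 2 short motifs, the sterol regulatory element bound by SREBP and the CCAAT box bound by its partner NF-Y, and both were searched on either strand, together with the core of the element that IRF proteins bind. The windows cover 250 bases before to 50 after the start site in RefSeq (build GRCm38.p6), and matched 5 of the 8 genes, Hmgcs1, Idi1, Lss, Cyp51 and Insig1. CCAAT was found in 5 of these 5 windows, against 37.4% of all 32851 windows of that length. The core CACNCCAC was found in 2 of 5, those of Hmgcs1 and Insig1, against 6.24% of all windows. GAAANNGAA, the core of the interferon-stimulated response element, was found in 0 of 5, against 8.56% of all windows, which says only that these letters are not in this stretch. Hmgcs1 and Insig1 are printed because they hold both sterol motifs, and Idi1 because it holds a pair of CCAAT boxes near its start. Capitals mark matches, read as printed or, where the match is on the other strand, as the reverse complement (ATTGG for CCAAT). The windows lie at chr13:119690101-119690400 (Hmgcs1, plus strand), chr5:28071162-28071461 (Insig1, plus strand) and chr13:8885356-8885655 (Idi1, plus strand).
Hmgcs1 promoter: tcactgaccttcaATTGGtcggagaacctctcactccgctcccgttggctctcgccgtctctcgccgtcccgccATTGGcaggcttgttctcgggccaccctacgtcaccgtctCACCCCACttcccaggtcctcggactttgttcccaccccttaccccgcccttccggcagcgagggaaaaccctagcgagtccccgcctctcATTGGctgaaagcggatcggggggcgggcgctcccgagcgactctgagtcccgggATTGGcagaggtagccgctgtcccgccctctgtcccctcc
Insig1 promoter: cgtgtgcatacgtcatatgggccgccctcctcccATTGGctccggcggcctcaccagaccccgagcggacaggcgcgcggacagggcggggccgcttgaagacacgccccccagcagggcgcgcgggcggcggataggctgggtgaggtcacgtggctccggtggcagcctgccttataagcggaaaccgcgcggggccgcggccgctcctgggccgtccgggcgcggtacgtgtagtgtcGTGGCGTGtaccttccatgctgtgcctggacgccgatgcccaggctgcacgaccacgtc
Idi1 promoter: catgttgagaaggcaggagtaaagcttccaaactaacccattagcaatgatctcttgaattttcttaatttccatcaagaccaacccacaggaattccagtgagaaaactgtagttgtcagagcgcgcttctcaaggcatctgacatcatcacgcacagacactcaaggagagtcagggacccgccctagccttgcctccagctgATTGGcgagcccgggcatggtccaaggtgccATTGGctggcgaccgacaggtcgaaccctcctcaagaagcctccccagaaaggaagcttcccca
In Hmgcs1, 4 CCAAT boxes surround a sterol element core whose first base is at -136 from the start site. In Insig1 the core lies at -9 and the CCAAT box at -216. A match is a description of letters and not a binding site.

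The deposited counts summed to between 24454801 and 28658826 per library, and 13533 genes passed the filter on low counts, the 8 sterol genes among them. Mouse Irf7 was at 92.0 to 147 CPM (counts relative to the TMM-scaled library size) in the libraries labelled GFP and at 14.5 to 16.4 CPM in those labelled OEIRF7, a log2 fold change of -2.96 that goes against the label. Hk1, the hexokinase gene on which the study centres, was higher in the libraries labelled OEIRF7, with a log2 fold change of 0.79. The reagents of the study name a human IRF7 adenovirus, whose transcript mouse counts would not measure. An uncounted transcript bears on a missing rise and not on the fall of mouse Irf7, whose cause was not tested. The same reagents list an adeno-associated virus carrying mouse Irf7, whose transcript mouse counts would include. The study's text describes its injection into mice. For these libraries, the deposited description names an adeno-associated virus, while the study's text names an adenovirus. The files do not settle this, and every direction below is between libraries as they are labelled. Replicate 3 labelled OEIRF7 stood somewhat apart from its group (chi-square per degree of freedom of 6.21 to 8.67 against the others, and 2.69 to 4.10 among those), and replicate 2 labelled GFP did so less (4.96 to 5.91 against the others, and 3.27 to 3.64 among those). Of the 8 sterol genes, 7 were called higher without the first of these libraries and 6 without the second. Some markers of fibroblasts and of other cell types also passed an adjusted p of 0.05, as did 29.0% of all tested genes as higher and 29.9% as lower. Counts in lists this short carry no test and are not read as a shift of a cell type. Summed fibroblast markers were at 15886 to 16427 CPM in the libraries labelled GFP and 14804 to 15668 CPM in those labelled OEIRF7, with 2 of 10 higher and 6 lower, and Tcf21, a marker of resident fibroblasts, fell by 1.33 on the log2 scale. Of the matrix genes in that list, Col3a1, Postn, Lum and Col1a1 fell by 0.53, 0.38, 0.35 and 0.16. Col1a2 (-0.05) and Dcn (-0.02) did not pass, and the 2 genes called higher were Pdgfra (0.25) and Vim (0.22). Summed macrophage markers were at 284 to 339 and 359 to 405 CPM, with 4 of 8 higher. Endothelial markers were at 216 to 228 and 221 to 252 CPM, with 3 of 7 higher and 1 lower. Mural markers were at 1351 to 1475 and 1295 to 1443 CPM, with 3 of 7 higher, 2 lower and 1 not tested. Most of the mural sum was Pdgfrb alone, with means of 1413 and 1268 CPM. Epicardial markers were at 102 to 118 and 84.2 to 92.3 CPM, with 3 of 7 higher and 2 lower. Of 9 cardiomyocyte markers 1 passed the filter, and they summed to at most 13.4 CPM. None of these markers was at 0 in all libraries. The part of other cells in the results below was not tested, and in bulk RNA fewer cells of a type and less RNA per cell cannot be told apart.

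Most of the sterol genes were higher in the libraries labelled OEIRF7, each by less than 1.5-fold. Of the 8 genes, 6 passed an adjusted p of 0.05 as higher (Fdps, Insig1, Cyp51, Sqle, Idi1 and Lss) and 0 as lower in edgeR's quasi-likelihood test, where 29.0% of all tested genes were called higher and 29.9% lower. At an unadjusted p under 0.05 it was 7 of 8, all higher. The share of all tested genes at that threshold was not counted. DESeq2 gave the same counts of 6 and 0 at an adjusted p under 0.05. A log2 difference, here and below, is the log2 fold change fitted by edgeR, OEIRF7 over GFP as labelled. The median log2 fold change of the 8 genes was 0.24, against 0.0015 over all tested genes. None of the 8 passed a fold of 1.5, a size that 9.26% of tested genes passed as higher and 9.64% as lower. The groups did not overlap in 7 of the 8 genes, each with all libraries labelled OEIRF7 above all libraries labelled GFP, against 26.8% of tested genes. All 8 were abundant transcripts with 3928 to 12697 counts in a library, between the 91.1st and the 97.1st percentile of mean CPM. Their standard errors were 0.031 to 0.038 on the log2 scale, against a median of 0.068 over tested genes. The median log2 fold change of all genes called higher was 0.38, and only Fdps and Insig1 exceeded it.

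**Figure D1:**
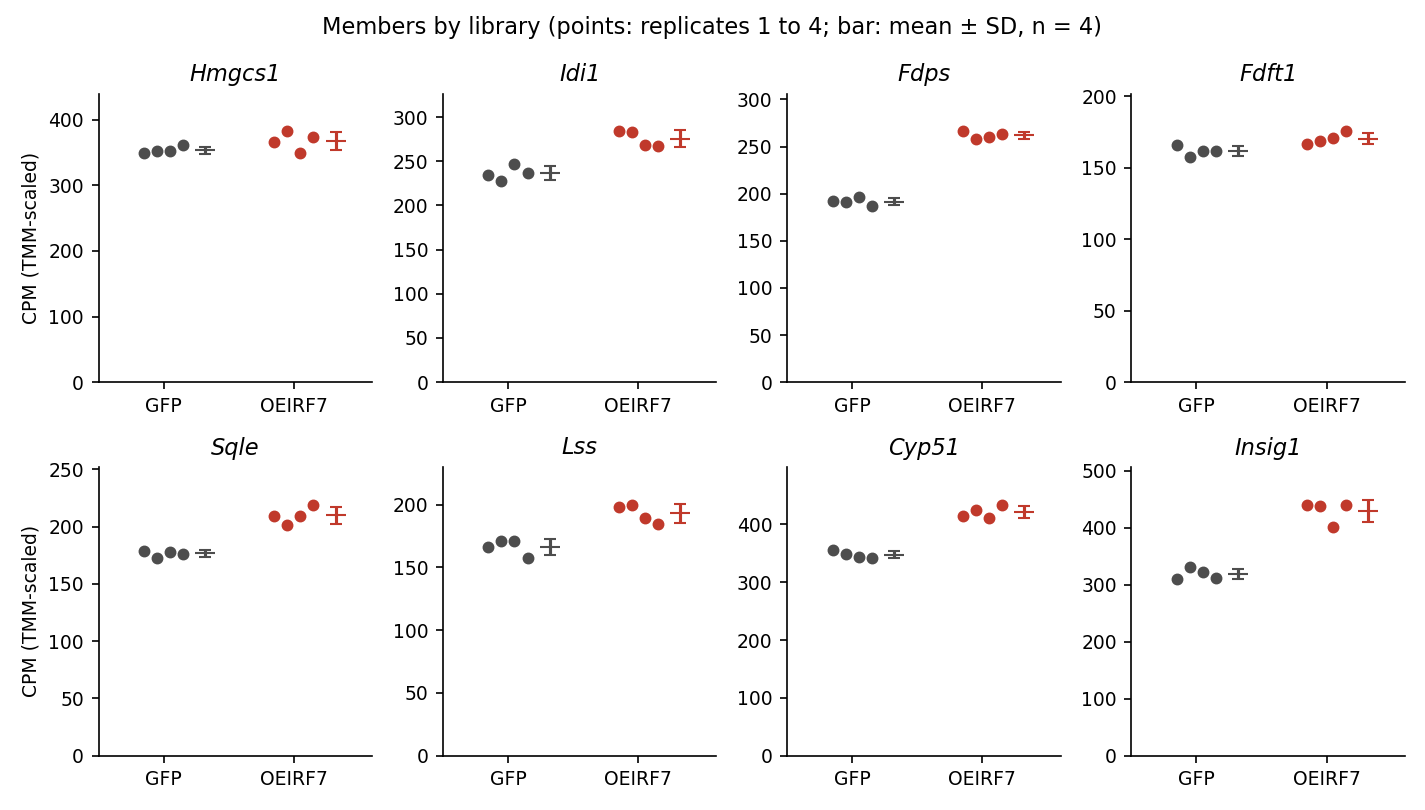
CPM (TMM-scaled) of the 8 sterol genes in each library, with 4 points per group for replicates 1 to 4 and a bar for the mean ± SD (n = 4). In 7 panels all points labelled OEIRF7 lie above all points labelled GFP, and only in Hmgcs1 do the groups overlap.

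The pathway opens with the building of isoprene units. Hmgcs1 (ENSMUSG00000093930, plus strand of chromosome 13 of GRCm38, 119690379 to 119708260) encodes the cytosolic synthase of the early mevalonate pathway. It stood at 349, 351, 352 and 361 CPM in the libraries labelled GFP and at 366, 382, 349 and 373 CPM in those labelled OEIRF7. Replicate 3 labelled OEIRF7 was level with the lowest GFP library, and the groups overlapped. The means were 353 ± 5.30 and 368 ± 14.2 CPM (SD, n = 4 each), a log2 difference of 0.06 (standard error 0.033, adjusted p = 0.16), which without that library became 0.08 (adjusted p = 0.036). Scaling by library size only, with all libraries kept, also gave 0.08 (adjusted p = 0.046). Its call therefore turns on 1 library and on the scaling.

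Idi1 (ENSMUSG00000058258, plus strand of chromosome 13, 8885501 to 8892451) encodes the isomerase that interconverts the isoprene units. It stood at 235, 227, 247 and 237 CPM in the libraries labelled GFP and at 284, 284, 268 and 267 CPM in those labelled OEIRF7. Every library labelled OEIRF7 was above every library labelled GFP. Its log2 difference was 0.22 (standard error 0.036, adjusted p = 9.3e-05). Fdps (ENSMUSG00000059743, minus strand of chromosome 3, 89093588 to 89101959) encodes farnesyl diphosphate synthase, at the fork between sterols and the prenyl groups that are attached to proteins. It stood at 192, 191, 196 and 187 CPM in the libraries labelled GFP and at 266, 258, 260 and 263 CPM in those labelled OEIRF7. The gap between the groups was over 60 CPM and each group was tight. Fdps showed the largest difference of the 8, an increase of 36.7% with a log2 difference of 0.45 (standard error 0.031, adjusted p = 1.2e-08). Gm43738 shares a stretch with Fdps on the same strand and had 21 counts over the 8 libraries, against 47129 of Fdps. How reads lying in both genes were counted is not stated.

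The middle steps commit farnesyl units to sterols. Fdft1 (ENSMUSG00000021273, minus strand of chromosome 14, 63145150 to 63179578) encodes squalene synthase. It stood at 166, 157, 162 and 161 CPM in the libraries labelled GFP and at 167, 169, 171 and 176 CPM in those labelled OEIRF7. The groups did not overlap, but the highest GFP and the lowest OEIRF7 library were less than 1 CPM apart. Its log2 difference was 0.08 (standard error 0.033, adjusted p = 0.057), short of the threshold, while the exact two-sided permutation test gave p = 0.029, the smallest that 4 against 4 allow. Fdft1 shares a stretch with Ctsb on the opposite strand, a gene with 231243 counts over the 8 libraries against 34487 of Fdft1, and the strand setting of the counting is not stated, so its value is uncertain. Ctsb itself had a log2 fold change of 0.01.

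Sqle (ENSMUSG00000022351, plus strand of chromosome 15, 59315077 to 59331192) encodes squalene epoxidase, a control point of the pathway. It stood at 179, 173, 178 and 176 CPM in the libraries labelled GFP and at 209, 202, 210 and 219 CPM in those labelled OEIRF7. All libraries labelled OEIRF7 were above all labelled GFP, with a log2 difference of 0.25 (standard error 0.034, adjusted p = 1.7e-05). Lss (ENSMUSG00000033105, plus strand of chromosome 10, 76531588 to 76557138) encodes the cyclase that folds the epoxide into lanosterol, the first sterol. It stood at 166, 171, 171 and 157 CPM in the libraries labelled GFP and at 198, 200, 189 and 184 CPM in those labelled OEIRF7. The groups were again apart, with a log2 difference of 0.21 (standard error 0.038, adjusted p = 0.00022).

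Cyp51 (ENSMUSG00000001467, minus strand of chromosome 5, 4081145 to 4104746) encodes the cytochrome P450 that removes a methyl group from lanosterol. It stood at 356, 348, 344 and 343 CPM in the libraries labelled GFP and at 414, 426, 411 and 434 CPM in those labelled OEIRF7. All libraries labelled OEIRF7 lay above all labelled GFP, with a log2 difference of 0.28 (standard error 0.031, adjusted p = 2.0e-06). Akap9 touches it on the opposite strand and had a log2 fold change of 0.01.

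Insig1 (ENSMUSG00000045294, plus strand of chromosome 5, 28071363 to 28078662) encodes the protein that holds SCAP in the endoplasmic reticulum. It stood at 310, 330, 322 and 312 CPM in the libraries labelled GFP and at 440, 438, 401 and 440 CPM in those labelled OEIRF7. Replicates 1, 2 and 4 labelled OEIRF7 were within 3 CPM of each other and replicate 3 was lower, though still above every GFP library. Insig1 rose by 34.8%, a log2 difference of 0.43 (standard error 0.037, adjusted p = 1.4e-07), and 0.46 without replicate 3 labelled OEIRF7.

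Averaged over the 8 genes, log2 CPM centred on each gene's mean was -0.12, -0.13, -0.10 and -0.14 in the libraries labelled GFP and 0.13, 0.14, 0.09 and 0.14 in those labelled OEIRF7. Within the group labelled OEIRF7, replicate 3 was thus the lowest, and 7 of its 8 genes were above their own mean, against 8 of 8 in the others. The genes closest to this average were Slc38a10, Fth1, Slc3a2, Enc1 and Sec61a1, among 9354 genes compared, with a root mean square difference of 0.013 (log2) for Slc38a10 and 0.024 for Sec61a1. Among the sterol genes themselves Cyp51 was nearest the average, at 0.027, and Fdps farthest, at 0.10.

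Levels of different genes were compared per length, in the deposited FPKM (fragments per kilobase of transcript, scaled to depth). In the libraries labelled GFP, Fdps was highest, at 153 ± 3.47 FPKM (SD, n = 4), followed by Insig1 at 117 ± 3.58, Hmgcs1 at 108 ± 2.71, Idi1 at 93.6 ± 2.99 and Cyp51 at 87.6 ± 1.5 FPKM. Sqle at 63.4 ± 0.95, Fdft1 at 53.6 ± 0.98 and Lss at 36.0 ± 1.61 FPKM came last, and no neighbours in this order overlapped. In the libraries labelled OEIRF7 the order was the same, from Fdps at 213 ± 3.98 FPKM to Lss at 41.7 ± 1.73 FPKM. There Hmgcs1 (115 ± 4.76), Idi1 (111 ± 4.18) and Cyp51 (108 ± 3.0 FPKM) drew together, with the ranges of Hmgcs1 and Idi1 and those of Idi1 and Cyp51 overlapping.

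**Figure D2:**
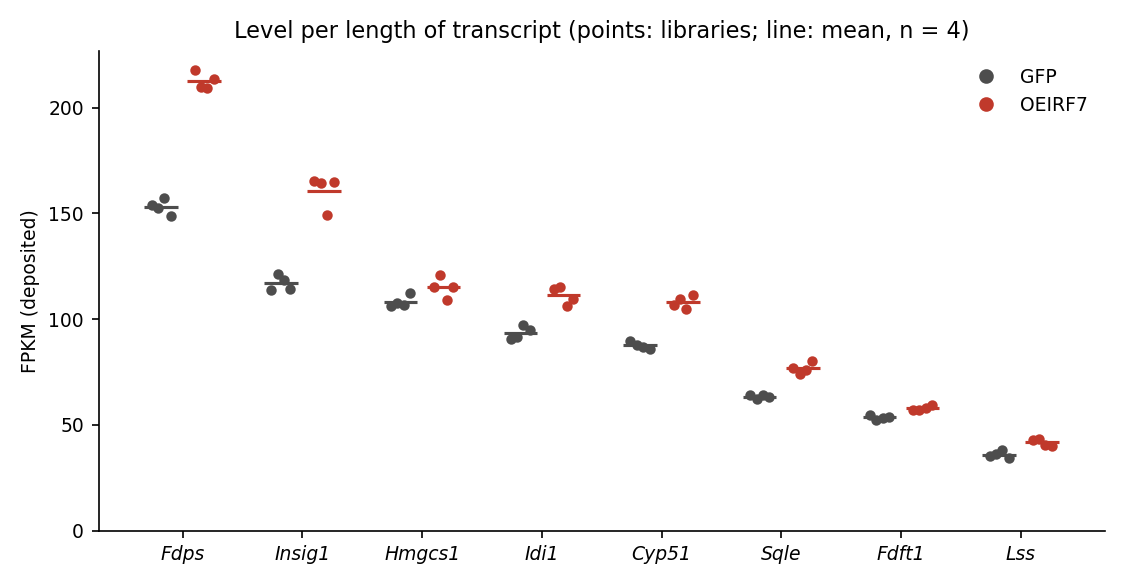
Deposited FPKM of the 8 sterol genes, ordered by their mean in the libraries labelled GFP, with a point per library and a line at the mean (n = 4). Fdps is highest and Lss lowest in both groups, and Hmgcs1, Idi1 and Cyp51 come close together in the libraries labelled OEIRF7.

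The transcripts of the pathway also differed between the groups in their ratios to each other. These count ratios within a library were chosen after their values were seen and carry no test. Fdps to Hmgcs1 went from 0.54 ± 0.017 in the libraries labelled GFP to 0.71 ± 0.031 in those labelled OEIRF7 (SD, n = 4 each), and Fdps to Fdft1, the enzyme that follows it, from 1.19 ± 0.031 to 1.54 ± 0.043. Fdps to Ggps1, which extends the farnesyl chain toward protein prenylation, went from 2.94 ± 0.17 to 5.76 ± 0.29. In each ratio the groups did not overlap.

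A list of 12 other enzymes of sterol synthesis went in both directions, with 6 higher, 4 lower and 2 short of the threshold. For this and every list below, the shares over all tested genes were 29.0% higher and 29.9% lower, and no list was tested. Hsd17b7, a ketosteroid reductase of the later steps, rose from 225 ± 1.96 to 273 ± 6.04 CPM (log2 fold change 0.28, standard error 0.030, adjusted p = 1.8e-06). Lbr, a sterol reductase that also anchors the nuclear lamina, rose by 0.26 on the log2 scale, and Pmvk, phosphomevalonate kinase, by 0.22. Tm7sf2, which reduces the sterol ring, fell by 0.50 from only 11.7 ± 2.07 CPM and with overlapping groups, and Mvk (mevalonate kinase), Nsdhl and Acat2 fell by 0.17, 0.17 and 0.10. Dhcr7, the last enzyme of an alternative branch, was at 57.6 ± 1.43 and 57.7 ± 4.36 CPM (adjusted p = 0.97).

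Counted over these 12 and the 7 enzymes among the 8 genes, 19 in the order of the pathway, 11 were higher, 4 lower and 4 short of the threshold. Of the 7 counted up to Fdps, 4 were higher and 2 lower. Of the 3 from Fdft1 to Lss, all among the 8 genes, 2 were higher and 0 lower. Of the 9 from Cyp51 onward, 5 were higher and 2 lower. Stretches this short carry no test, and 29.0% of all tested genes were called higher and 29.9% lower. The median log2 fold change of the 12 other enzymes was 0.09, below the 0.24 of the 8 genes.

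**Figure D3:**
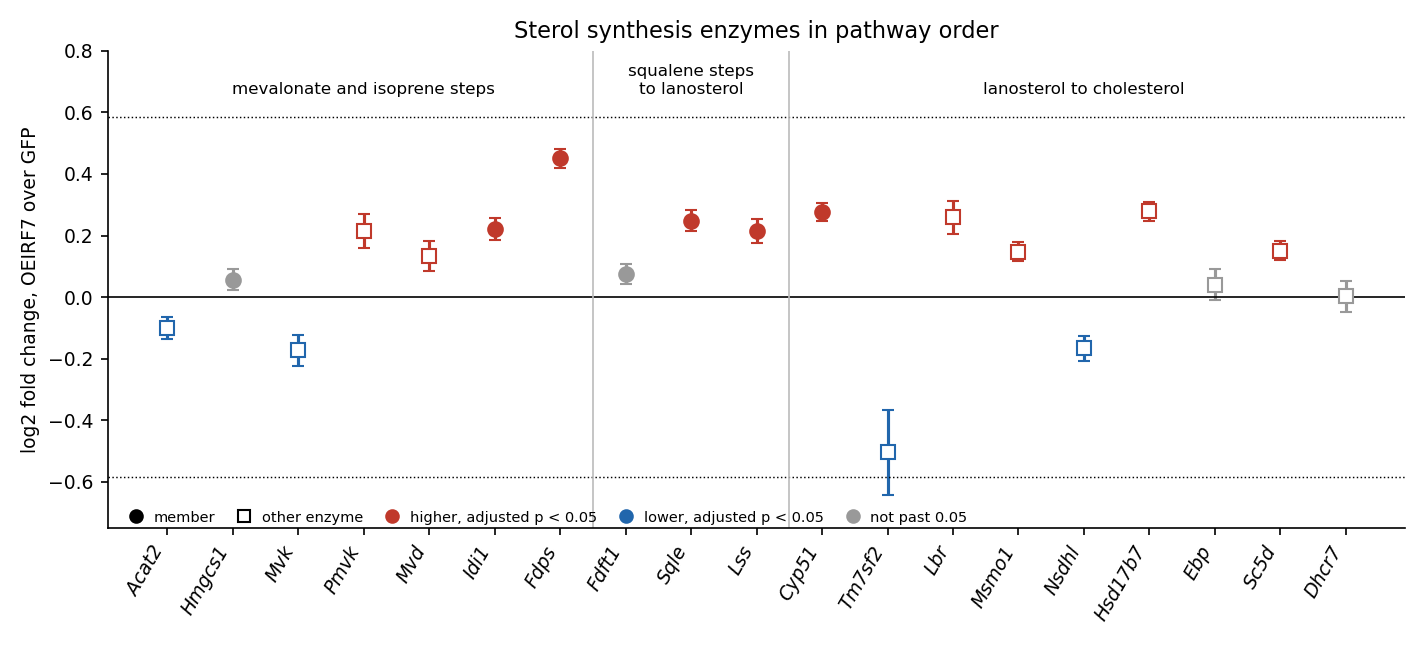
Log2 fold change (OEIRF7 over GFP, y axis, bar ± standard error) of 19 sterol synthesis enzymes in the order of the pathway (x axis), with filled circles for the 7 enzymes among the genes described here, open squares for the other 12 and dotted lines at a fold of 1.5. Genes called higher, as 29.0% of all tested genes were, are found in each of the 3 stretches. The 4 falls (Acat2, Mvk, Tm7sf2 and Nsdhl) are all outside the 7.

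Of 6 regulators of the pathway outside the 8 genes, 0 were called higher and 3 lower. The list is too short to read against the 29.0% and 29.9% of all tested genes so called. Srebf2, which encodes the SREBP most tied to cholesterol, was at 188 ± 5.44 CPM in the libraries labelled GFP and 189 ± 2.90 CPM in those labelled OEIRF7 (log2 fold change 0.00, standard error 0.033, adjusted p = 0.98). Srebf1, Scap and the site-2 protease gene Mbtps2 fell by 0.16, 0.17 and 0.17 on the log2 scale. DESeq2 also called 0 of these 6 genes higher, while several of the alternatives given below called 1, Insig2. At an unadjusted p of 0.05, 4 passed, the 3 that fell and Insig2. The share of all tested genes passing it was not counted. Insig2, the paralog of Insig1, was at 51.4 ± 1.55 and 55.0 ± 1.92 CPM, a log2 difference of 0.10 (standard error 0.041, adjusted p = 0.054). In FPKM it was at 24.8 ± 2.49 and 30.9 ± 1.83, and limma on log2(FPKM + 1) gave 0.31 (adjusted p = 0.0027), so its value depends on the measure, while Insig1 rose in both.

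Of 8 genes for the sterol-driven breakdown of enzymes such as squalene epoxidase, 3 were higher and 1 lower. March6, the ubiquitin ligase of squalene epoxidase, rose by 0.25 on the log2 scale, Aup1 by 0.23 and Syvn1, another ubiquitin ligase of the endoplasmic reticulum, by 0.21. Vcp, the ATPase that pulls proteins from the membrane, fell by 0.12.

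The isoprenoid branch, which leaves the pathway after Fdps, was split, with 5 of 11 genes higher and 4 lower. Pdss1 (the side chain of coenzyme Q) rose by 0.48 from 2.64 ± 0.38 CPM with overlapping groups, Rabggta (prenylation of Rab proteins) by 0.32 and Nus1 (dolichol synthesis) by 0.28. Ggps1, the geranylgeranyl diphosphate synthase, fell from 65.4 ± 2.49 to 45.6 ± 2.87 CPM, or by 0.52 in log2 units (adjusted p = 3.5e-07). Pggt1b, a subunit of the transferase that uses its product, fell by 0.51, and Coq2 by 0.24.

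Of the 15 genes for uptake and release of cholesterol, 9 were higher and 2 lower. Over all tested genes 29.0% were called higher and 29.9% lower. The median log2 fold change of this list was 0.20, close to the 0.24 of the 8 sterol genes. Npc1, which exports cholesterol from lysosomes, rose by 0.52 in log2 units (113 ± 1.66 to 161 ± 4.50 CPM), the lipoprotein receptor Vldlr by 0.49 and the sterol carrier Stard3 by 0.43. Scarb2 and the HDL receptor Scarb1 fell by 0.23 and 0.14, the latter with overlapping groups, and in DESeq2 only 1 gene of the list was called lower. Mylip, a ubiquitin ligase of lipoprotein receptors, was at 9.48 ± 0.85 and 8.42 ± 0.90 CPM (adjusted p = 0.14).

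On the export side, 9 of 10 genes were tested, with 3 higher and 3 lower. Abca1, the pump that loads cholesterol onto apolipoprotein, stood at 94.9, 101, 86.0 and 97.8 CPM in the libraries labelled GFP and at 36.4, 34.7, 34.4 and 37.9 CPM in those labelled OEIRF7. The groups were far apart, with a log2 difference of -1.41 (standard error 0.052, adjusted p = 3.2e-11), larger than that of any of the 8 sterol genes. Apoe and Pltp, other LXR targets of lipid transport, fell by 0.54 and 0.45. Nr1h3, which encodes LXR alpha, rose by 0.62 from 2.50 ± 0.39 CPM, and the LXR target Arl4c by 0.41. Abcg1, the other pump, passed with a log2 fold change of 0.28 (adjusted p = 0.038) and overlapping groups, but not in DESeq2 (adjusted p = 0.15) or without replicate 3 labelled OEIRF7 (log2 fold change 0.13).

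Among the genes of oxysterols and storage, 7 of 10 were tested, with 3 higher and 1 lower. Ch25h, which makes an oxysterol that blocks SREBP and is known as an interferon-induced gene, rose from 4.08 ± 0.64 to 10.4 ± 1.23 CPM (log2 fold change 1.35, standard error 0.12, adjusted p = 2.7e-07). Soat1, which esterifies cholesterol for storage, rose from 72.1 ± 2.75 to 124 ± 4.19 CPM (log2 fold change 0.78, standard error 0.039, adjusted p = 5.1e-10). Dhrs9, a dehydrogenase counted in this list whose link to oxysterols or storage was not tested, rose by 1.69 from 4.48 ± 0.39 CPM. Cyp27a1, a sterol hydroxylase, fell by 0.42.

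Of 13 fatty acid genes that SREBP also drives, 4 were higher and 4 lower. These counts are close to the 29.0% and 29.9% of all tested genes called higher and lower. Elovl6 (chain elongation) rose by 0.42, Fasn (fatty acid synthase) by 0.24 and Scd1 (desaturation) by 0.13 on the log2 scale, and Pnpla3 rose by 1.97 from a mean of 0.22 ± 0.073 to 0.85 ± 0.19 CPM. Acacb, Fads2 and Acly fell by 0.63, 0.44 and 0.09. Their median log2 fold change was -0.03, against 0.24 for the 8 sterol genes.

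**Figure D4:**
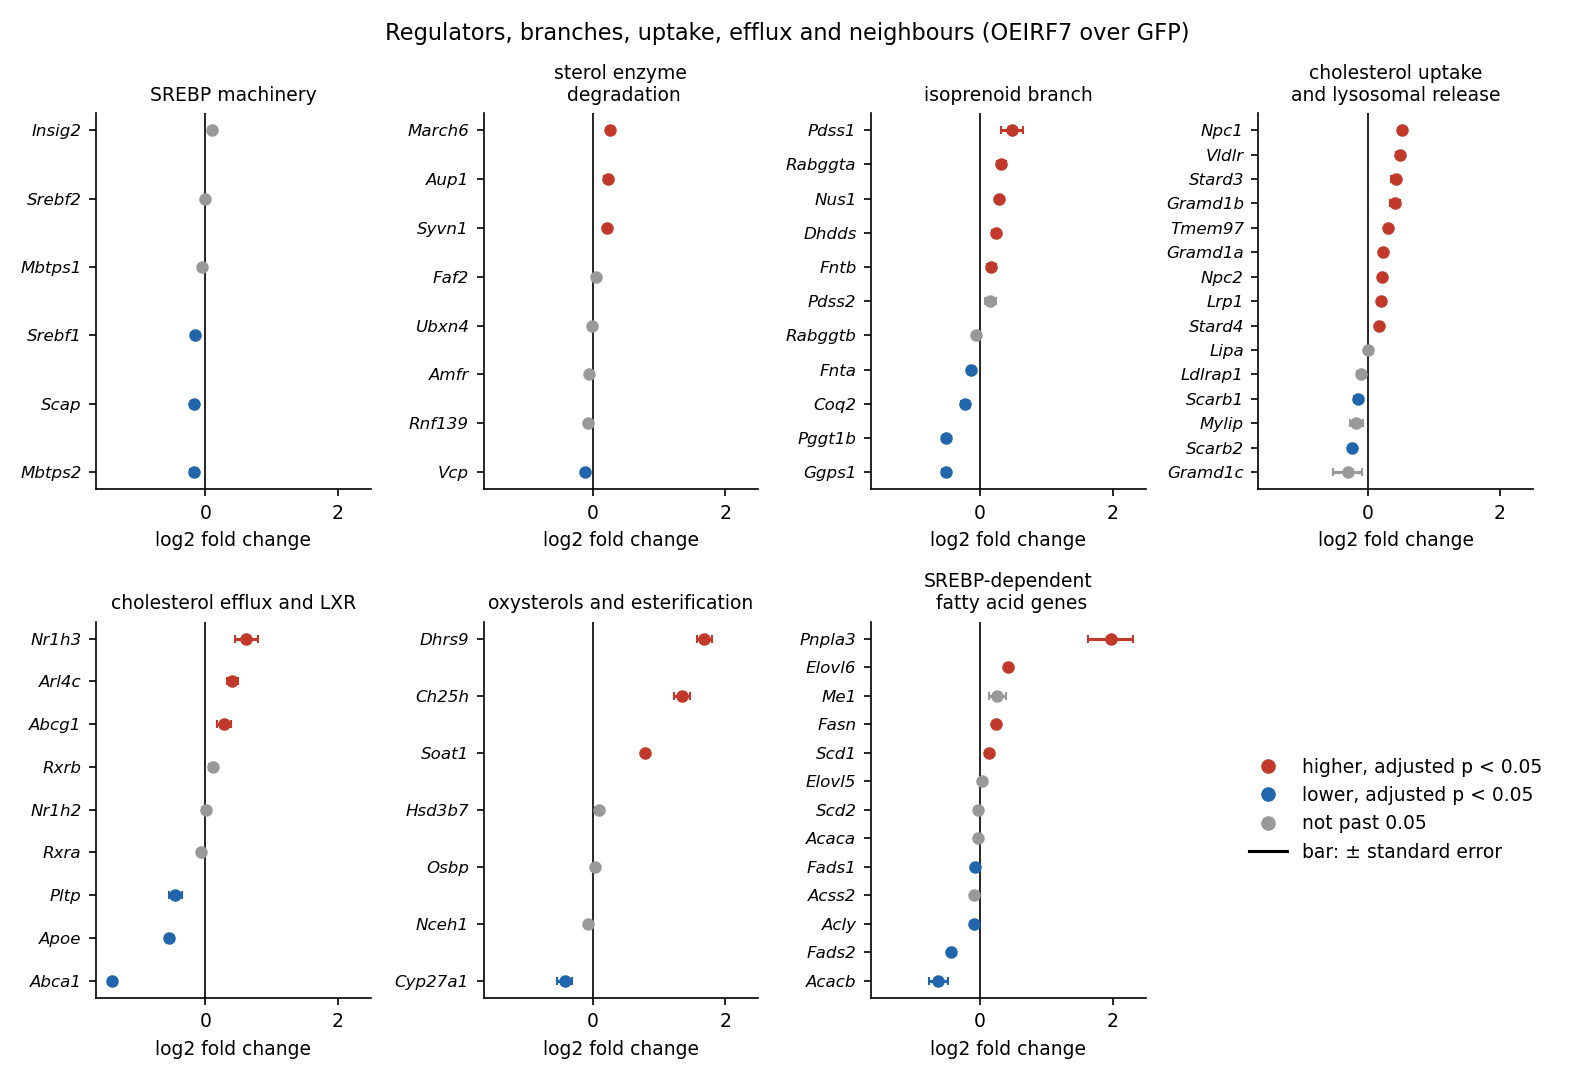
Log2 fold change (OEIRF7 over GFP, x axis, bar ± standard error) of the tested genes in 7 neighbouring lists, 1 panel per list, with red for higher, blue for lower and grey for short of an adjusted p of 0.05. Abca1 (-1.41) is the lowest and Pnpla3 (1.97) the highest, and of the regulators in the panel of SREBP machinery none is red.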

How the data were processed

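RNA-seq of 8 libraries of primary murine cardiac fibroblasts was analysed, 4 labelled GFP and 4 labelled OEIRF7. The authors trimmed reads of 150 bp with Trimmomatic, mapped them to GRCm38 with HISAT2, assigned them to genes with HTSeq-count and made the count table, which they deposited without normalization. A second set of deposited values is FPKM, made with Cufflinks and so scaled for length and depth. Versions and the strand setting of counting are not given in the sources used here, and labels and methods differ on the kits (RNeasy and SMARTER, or TRIzol and TruSeq Stranded). The deposited group means, fold changes, p-values and FDR belong to the authors' own comparison and were not used. Of 22274 identifiers 22219 matched GENCODE M21, and 121 symbols with GFP in place of letters were restored by identifier.

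Counts were fitted in R 4.3.3 with edgeR 4.0.16 (filterByExpr, TMM, glmQLFit and glmQLFTest, no covariates), with Benjamini-Hochberg adjustment over all 13533 tested genes and a call at an adjusted p under 0.05. Means ± SD are of TMM-scaled CPM. Log2 CPM used a prior count of 2. TMM factors lay between 0.989 and 1.01. Total counts of 24454801 to 28658826 per library put at least 3928 counts behind each value of a sterol gene, so counting error was small. The fits were tested on simulated data in which a small random set of the tested genes changed. Folds of 2 were mostly recovered. Folds of 1.2 were recovered only in part and with a higher share of false calls than the nominal one. The changed genes were mostly less abundant than the sterol genes, and far fewer than the genes called here. Neither share therefore carries over to the sterol genes. No pair of replicates agreed within sampling noise.

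The 8 genes and all lists were chosen with earlier results of these data known, and so support no direction independently. Named from each pathway list were the 3 largest rises and falls among called genes, with role-defining genes such as Srebf2, Insig2 and Abca1 whatever their values. Some genes of these lists are not reported here, and counts and names are of the rest. Acat2, the fibroblast markers named singly, Ctsb and Akap9 were chosen after values were seen. So were the count ratios and the division of the pathway into stretches. Alternatives were DESeq2 1.42.0, library size only, upper-quartile scaling, minimums of 1 count in total or 10 per library, a replicate block, leaving each library out in turn, and limma 3.58.1 on log2(FPKM + 1) and log2(FPKM + 0.1) where the mean FPKM reached at least 0.1.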

Additional observations from a re-analysis of the deposited data

Results flagged for a closer look

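In 114 groups of 4 libraries (57 genes), Dixon's test for a library far from the others at the 95% level, which chance passes in about 1 in 20 groups, found 3. In replicate 3 labelled OEIRF7, Insig1 was at 401 CPM, against 438 to 440 CPM in the other libraries labelled OEIRF7. Mvk, mevalonate kinase, was at 34.5 CPM there, against 39.0 to 39.3 CPM. Syvn1 was at 66.7 CPM in replicate 1 labelled GFP, against 62.4 to 63.0 CPM in the others. The cause was not tested.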

How the results depend on the processing

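In 16 alternatives the 8 sterol genes had log2 fold changes above 0, with 6 to 8 called higher, 0 lower and none at a fold of 1.5. Fdps (log2 fold change 0.44 to 0.48), Insig1 (0.42 to 0.46), Cyp51, Sqle, Idi1 and Lss passed in all 16. Hmgcs1 (0.04 to 0.09) passed in 2, scaling by library size only and leaving out replicate 3 labelled OEIRF7, and Fdft1 (0.06 to 0.11) in 5. Scaling by library size only called all 8 and put the median of all genes at 0.029. Same-numbered libraries correlated at 0.079, 0.095, 0.14 and 0.10 in their deviations from the group means. Each library correlated best with its own number, a hint from the data only, and the numbers were not taken to pair the libraries. With the replicate block 7 sterol genes were higher (Fdft1 joining, adjusted p = 0.04998), the 6 SREBP regulators had 1 higher, and all genes 4057 higher and 4154 lower in place of 3924 and 4045. Insig2 brought the SREBP regulators called higher from 0 to 1 also with library size only, upper-quartile scaling, a minimum of 10 counts and both limma fits, and leaving out a library gave 0 to 1. Lower calls among the other sterol enzymes were 2 in place of 4 in both limma fits, and among the fatty acid genes 2 with library size only and 1 in both limma fits in place of 4. Among the uptake genes 1 in place of 2 was lower with DESeq2, library size only and both limma fits, and 1 to 2 when a library was left out (1 without replicate 1, 3 or 4 labelled GFP or replicate 1 or 2 labelled OEIRF7). Leaving out a library gave 3 to 5 isoprenoid genes called higher (3 without replicate 1 or 4 labelled GFP or replicate 3 labelled OEIRF7) and 1 to 2 breakdown genes called lower (2 without replicate 3 labelled OEIRF7). On log2(FPKM + 1), which shrinks the folds of low genes, limma put 765 genes higher and 669 lower at a fold of 1.5, in place of 1253 and 1305. The cause of the other shifts was not tested. Depth limits Pnpla3, Nr1h3 and Pdss1, whose group means were all below 4 CPM, more than the 8 sterol genes.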
